A study of Bos taurus with 30 samples.

Results

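The 67 genes described here have, with the exception of the DNA repair gene APEX1, roles in RNA processing and protein synthesis, and were measured in peripheral white blood cells (PWBCs) of cattle. They were taken from the printed part of the study's gene list, which holds 1630 genes ordered by identifier, by words in the gene description (ribosomal protein, translation, tRNA, splicing, RNA helicase, DEAD-box, RNA binding or ribonucle). Of 93 genes that matched, 26 were set aside because their description also named a zinc finger, a kinase, a mitochondrial product, ubiquitin, a receptor or interferon. The remaining 67 had more than 1 CPM (the count of a gene scaled to a fixed library total, as is usual for this unit) in all 30 libraries, so none was lost at the limit of CPM above 1 in 5 libraries. The least abundant value of any member in any library was 5.04 CPM, for TRMT10A. In all, 14018 of the 27607 genes listed passed the same limit and were tested, and the printed list was itself drawn from genes that had passed the study's own limits on abundance. Genes that the study listed in gene ontology categories enriched among its changed genes at 24 h were also to be left out, a criterion that uses the measured change, and it removed 0 matches. The rule covers the head of a list ordered by identifier, and so samples these families and does not hold all of their genes.

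The libraries came from 5 crossbred beef heifers (Angus x Simmental), about 14 months old, whose estrus had been synchronized with GnRH, a progesterone insert and PGF2α. Blood was drawn into K2 EDTA tubes and kept on ice or at 4 °C. Tubes from the jugular vein waited 1, 3, 6, 8 or 24 h before the buffy coat was taken and red cells were lysed, and a tube from the coccygeal (tail) vein was processed at 1 h. This gave 5 libraries of coccygeal blood at 1 h, 5 of jugular blood at 1 h, 5 of jugular blood at 24 h and 15 of jugular blood at 3 to 8 h. The heifers are named A to E. The hour and the heifer of the last 15 could not be assigned to single columns, so they are given as a lowest, median and highest value and enter no test. Libraries held 12412619 to 19492274 counts, and a floor of 3 counts, which covers counting error only, stood at 0.154 to 0.242 CPM. In the 3 to 8 h group, 1 library stood apart, with a median Pearson correlation of 0.964 with the rest of its group on log2 CPM, against 0.975 or more in all others.

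Messenger RNA is spliced in the nucleus by small nuclear ribonucleoproteins (snRNPs) and their helper proteins, exported, translated by ribosomes with initiation factors and charged tRNAs, and in the end degraded by exonucleases such as the exosome. Ribosomes themselves are assembled in the nucleolus from rRNA and ribosomal proteins. Abundance was measured in bulk RNA, in which fewer cells of a type and less RNA per cell cannot be told apart. The study reports lower RNA integrity after the longest storage than after the shortest. It also reports similar coverage along transcripts for these storage times, and no sign of degradation in it. RNA integrity thus changed along with storage time, and its part in the differences at 24 h was not tested.

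At 24 h of storage, none of the 67 genes met the study's call, an FDR under 0.05 in both edgeR and DESeq2 with an absolute log2 fold change above 0.5. This call was met by 2.58% of all genes tested, 1.45% with greater and 1.13% with lower abundance. Without the threshold on the fold change, 4 of the 67 (5.97%) had an FDR under 0.05 in both tools, against 9.28% of all genes (4.77% greater at 24 h). All 4 were greater at 24 h: SNRNP70, LUC7L3 and SNRNP48, which encode splicing proteins, and DIS3L, an exoribonuclease. None was lower, while 4.52% of all genes were lower by this criterion. In edgeR alone the count was also 4 (5.97%, against 11.9% of all genes), and in DESeq2 alone it was 5 (7.46%, against 10.4%). An unadjusted p under 0.05 was found in 12 members (17.9%) with edgeR, against 28.1% of all genes, and in 10 (14.9%) with DESeq2, against 21.1%.

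The changes of the members were small in size. Their median absolute log2 fold change was 0.07, and that of all genes was 0.14. The 95% interval of the DESeq2 log2 fold change lay between -0.5 and 0.5 for 64 of the 67, which was so for 61.9% of all genes. The exceptions were SNRNP70, LUC7L3 and RBM47. The members were also more abundant than most genes, with a median of 117 CPM in jugular blood at 1 h against 25.3 CPM over all genes, and the median DESeq2 standard error was 0.08 for members and 0.12 for all genes. Signs were mostly positive: 50 of the 67 log2 fold changes were above 0 (74.6%, against 51.9% of all genes), with a median of 0.04 for members and 0.01 for all genes. Within heifers A, D and E, 44, 49 and 47 of the 67 were higher at 24 h. These were 65.7%, 73.1% and 70.1%, against 51.4%, 49.6% and 54.4% of all genes. In B, 31 of the 67 were higher (46.3%, against 51.4% of all genes), and in C 33 were (49.3%, against 46.8% of all genes). The median paired log2 ratios of the members were -0.02 in B and -0.01 in C.

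**Figure D1:**
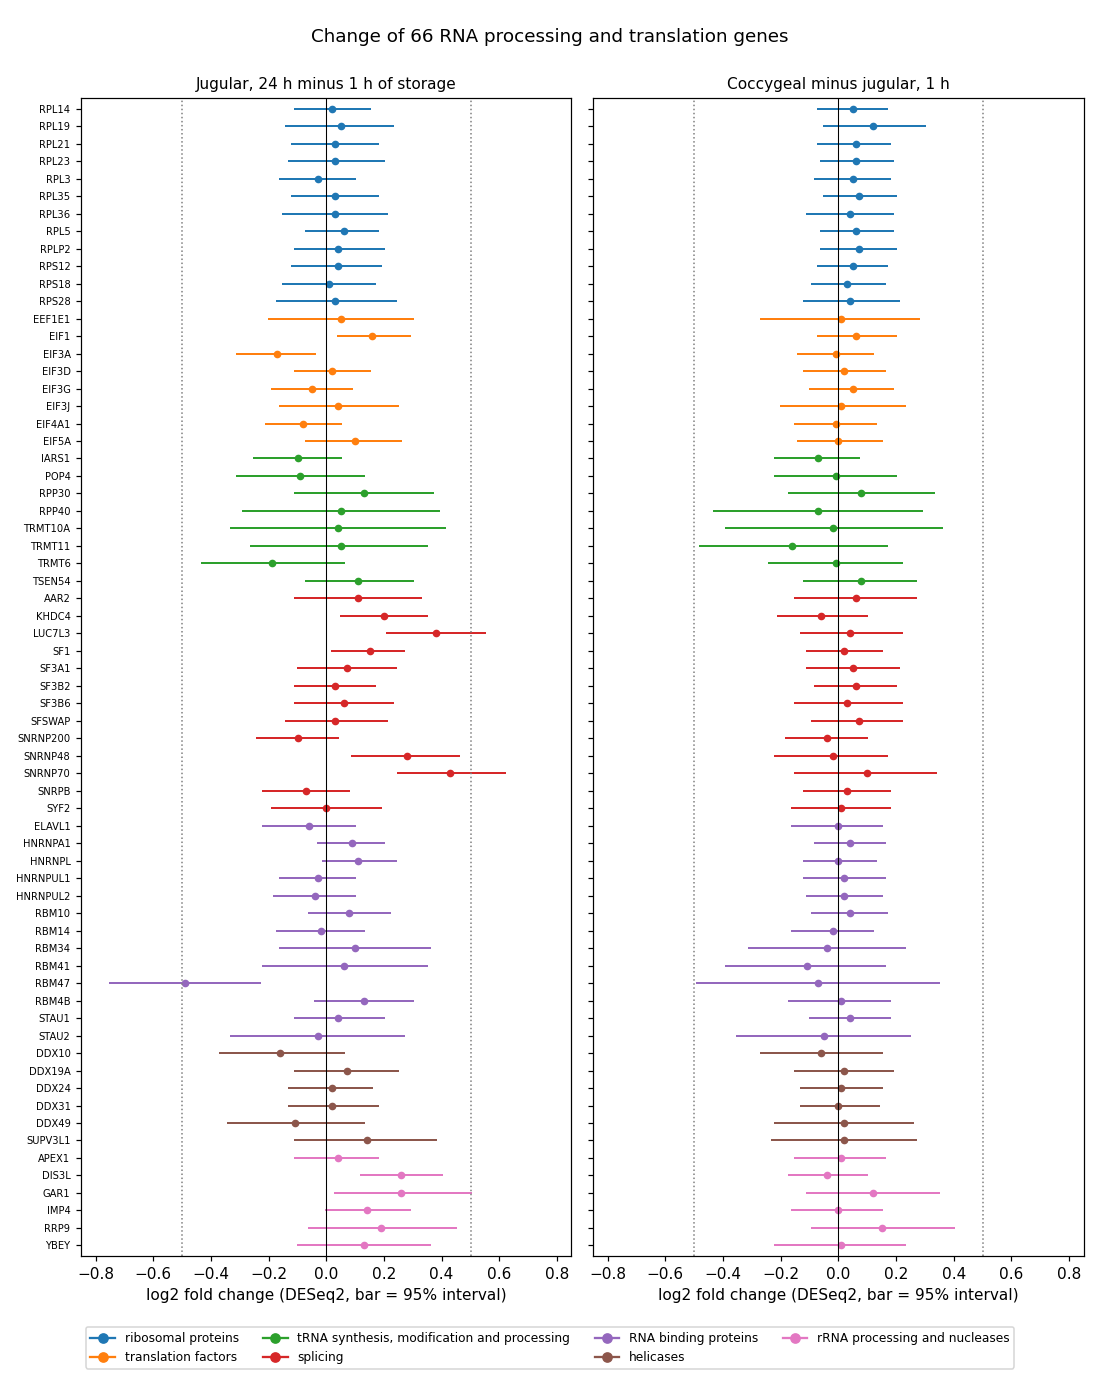
Log2 fold change of 66 of the 67 genes (DESeq2, point) with its 95% interval (bar), for jugular blood at 24 h minus 1 h (left) and coccygeal minus jugular blood at 1 h (right), coloured by role. Dotted lines mark -0.5 and 0.5. On the left, only SNRNP70, LUC7L3 and RBM47 have bars that cross a dotted line, and on the right none does.

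**Figure D2:**
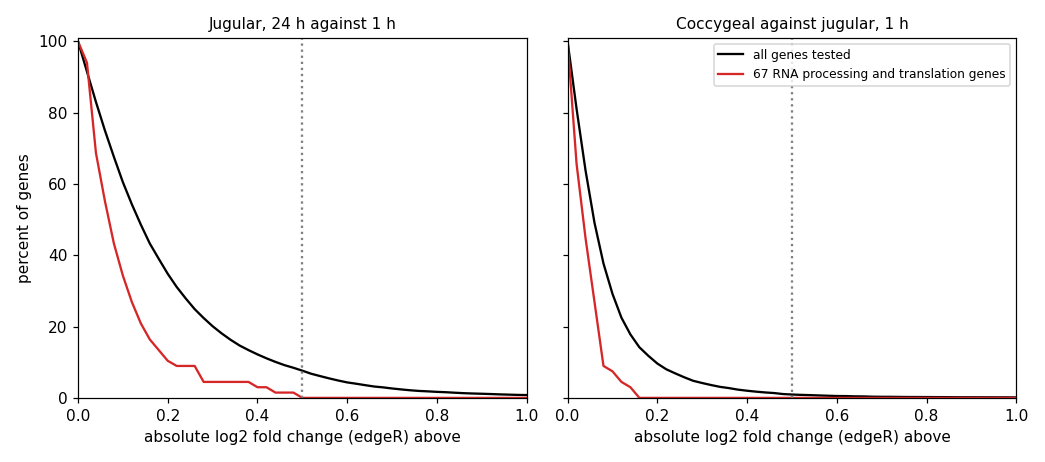
Percent of genes (vertical axis) whose absolute edgeR log2 fold change is above the value on the horizontal axis, for the 67 genes and for all 14018 genes tested, in both comparisons. At 0.25 in the storage comparison, 8.96% of the 67 genes and 26.3% of all genes remain, and at 0.5 no member and 7.63% of all genes remain.

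The splicing group held 13 genes, of which 11 had log2 fold changes above 0 at 24 h (84.6%, against 51.9% of all genes). In both tools 3 passed the FDR, all greater, which 4.77% of all genes did. The median log2 fold change of the group was 0.07. SNRNP70 (ENSBTAG00000001996, chromosome 18, 55614187 to 55618814, plus strand, ARS-UCD1.2) encodes a protein of the U1 snRNP, the particle that recognizes the 5′ splice site. In heifers A to E it was at 61.6, 89.2, 90.8, 73.1 and 97.6 CPM in jugular blood at 1 h, and at 96.8, 122, 94.7, 113 and 128 CPM at 24 h. Every heifer was higher at 24 h, and the groups overlapped only through heifers C and A at 24 h and E at 1 h. The edgeR log2 fold change was 0.44 (fold 1.35, FDR = 0.012), and that of DESeq2 was 0.43 ± 0.09 (SE, FDR = 0.000151). The coccygeal libraries at 1 h held 69.9 to 112 CPM and the libraries of 3 to 8 h held 58.7 to 135 CPM with a median of 96.6, so the levels at 24 h lay inside the range of earlier libraries.

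LUC7L3 (ENSBTAG00000002279, chromosome 19, 35993171 to 36018642, minus strand) belongs to the LUC7 family, whose proteins work with the U1 snRNP. In heifers A to E it was at 167, 194, 259, 166 and 153 CPM at 1 h, and at 228, 248, 301, 181 and 262 CPM at 24 h. All 5 heifers rose, and heifer C was the highest at both times. The groups overlapped, also apart from heifer C, since D at 24 h (181 CPM) lay below B at 1 h (194 CPM). Its edgeR log2 fold change was 0.38 (fold 1.31, FDR = 0.0219), and DESeq2 gave 0.38 ± 0.09 (SE, FDR = 0.000396). The libraries of 3 to 8 h held 141 to 236 CPM of LUC7L3, with a median of 186. SNRNP48 (ENSBTAG00000001123, chromosome 23, 47800492 to 47816538, minus strand) encodes a protein of the U11/U12 snRNP of the minor spliceosome. It was at 31.4, 33.5, 43.9, 28.8 and 32.9 CPM at 1 h, and at 39.9, 42.9, 50.3, 33.5 and 39.7 CPM at 24 h. The paired log2 ratios of the 5 heifers lay between 0.19 and 0.35, the narrowest spread of the 4 genes (SD 0.07, n = 5). The edgeR log2 fold change was 0.28 (FDR = 0.0214), with a DESeq2 FDR of 0.0319. At 3 to 8 h, SNRNP48 was at 27.7 to 43.4 CPM, with a median of 36.4. Over the 30 libraries, log2 CPM of LUC7L3 and SNRNP48 had a Pearson r of 0.90, whereas SNRNP70 had an r of 0.42 with LUC7L3 and 0.47 with SNRNP48. The exoribonuclease gene DIS3L, not of the splicing group, had an r of 0.71 with LUC7L3, 0.80 with SNRNP48 and 0.35 with SNRNP70. These libraries share heifers, and the values are given as a description.

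The other splicing genes did not pass the FDR in either tool. KHDC4 had an edgeR log2 fold change of 0.20 (FDR = 0.0665) and SF1, the branch point binding protein, of 0.15 (FDR = 0.109), and both were higher at 24 h in all 5 heifers. The 3 subunits of the U2 snRNP complexes SF3a and SF3b in the list, SF3A1, SF3B2 and SF3B6, had log2 fold changes of 0.07, 0.03 and 0.06. SNRPB, an Sm core protein shared by spliceosomal snRNPs and the most abundant of the group per kilobase of transcript (136 ± 9.00 FPKM, SD, n = 5, jugular 1 h), held 156, 165, 137, 154 and 157 CPM at 1 h and 150, 146, 126, 167 and 147 CPM at 24 h. The groups overlapped, and the log2 fold change was -0.07 (edgeR FDR = 0.48, DESeq2 95% interval -0.22 to 0.08). SNRNP200, the helicase that opens the paired U4 and U6 RNAs, stood at -0.10 (FDR = 0.325). AAR2, SFSWAP and SYF2 had log2 fold changes of 0.11, 0.04 and 0.00.

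**Figure D3:**
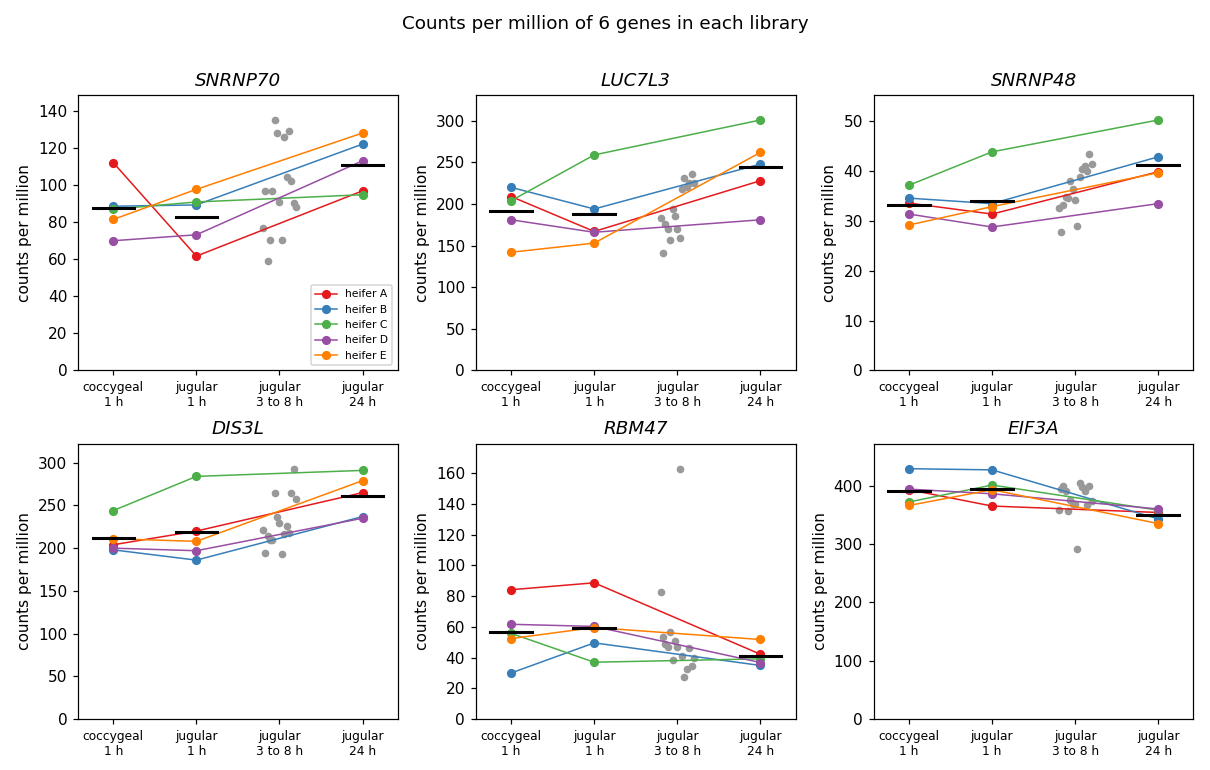
CPM (vertical axes, from 0) of 6 genes in each library, with lines joining the libraries of a heifer, black bars for group means and grey points for the 15 libraries of 3 to 8 h, whose position within the group has no meaning. SNRNP70, LUC7L3, SNRNP48 and DIS3L were higher at 24 h than at 1 h in all 5 heifers, EIF3A was lower in all 5, and RBM47 was lower in 4.

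Among the 6 genes of rRNA processing and nucleases, all log2 fold changes were above 0 (51.9% of all genes were), with a median of 0.17. In both tools 1 gene passed the FDR with greater abundance, which 4.77% of all genes did. That gene was DIS3L (ENSBTAG00000000371, chromosome 10, 13201806 to 13234117, plus strand), the catalytic exonuclease of a cytoplasmic form of the RNA exosome. It was at 220, 186, 284, 197 and 208 CPM at 1 h, and at 265, 237, 291, 235 and 279 CPM at 24 h in heifers A to E. Every heifer rose, by a paired log2 ratio of 0.03 in heifer C to 0.42 in heifer E, and the groups overlapped through heifer C. The libraries of 3 to 8 h held 193 to 293 CPM with a median of 221, so the levels at 24 h lay inside the range of earlier libraries. The edgeR log2 fold change was 0.27 (fold 1.2, FDR = 0.0248), and DESeq2 gave 0.26 ± 0.07 (SE, FDR = 0.00474).

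The nucleolar members of the group had edgeR p-values under 0.05 before adjustment and did not pass the FDR. GAR1, of the H/ACA particles that guide pseudouridylation, had a log2 fold change of 0.27 (FDR = 0.0797). IMP4 and RRP9, both of the U3 particle that prepares the small subunit rRNA, had log2 fold changes of 0.15 (FDR = 0.0934) and 0.20 (FDR = 0.169), and each was higher in all 5 heifers. YBEY, an endoribonuclease, stood at 0.13 (FDR = 0.287). APEX1 entered the list only because the word endodeoxyribonuclease holds the letters searched for. It is a DNA repair enzyme, the most abundant of the 6 per kilobase (83.4 ± 6.13 FPKM, SD, n = 5), with 123, 124, 105, 122 and 111 CPM at 1 h and 137, 121, 105, 128 and 110 CPM at 24 h. These values overlapped, and its log2 fold change was 0.04 (FDR = 0.698).

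Ribosomal protein genes were the most abundant group. Per kilobase of transcript, the 13 genes ranged from 102 FPKM (CPM per kilobase of transcript) for RPL19 to 1208 FPKM for RPL23 in jugular blood at 1 h. Many ribosomal protein genes have near identical processed copies, duplicate reads had been removed, and reads with several alignments are not counted by default, so these levels are uncertain. The part of counting in their order was not tested. RPS18, RPS28, RPS12 and RPL14 lay at 992 to 1042 FPKM, within an SD of each other (SD 54.9 to 167, n = 5). Together the 13 genes took 0.819 ± 0.0542% of library counts in jugular blood at 1 h, 0.840 ± 0.120% at 24 h and 0.849 ± 0.0722% in coccygeal blood (SD, n = 5 each). The differences between these means were smaller than each SD.

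**Figure D4:**
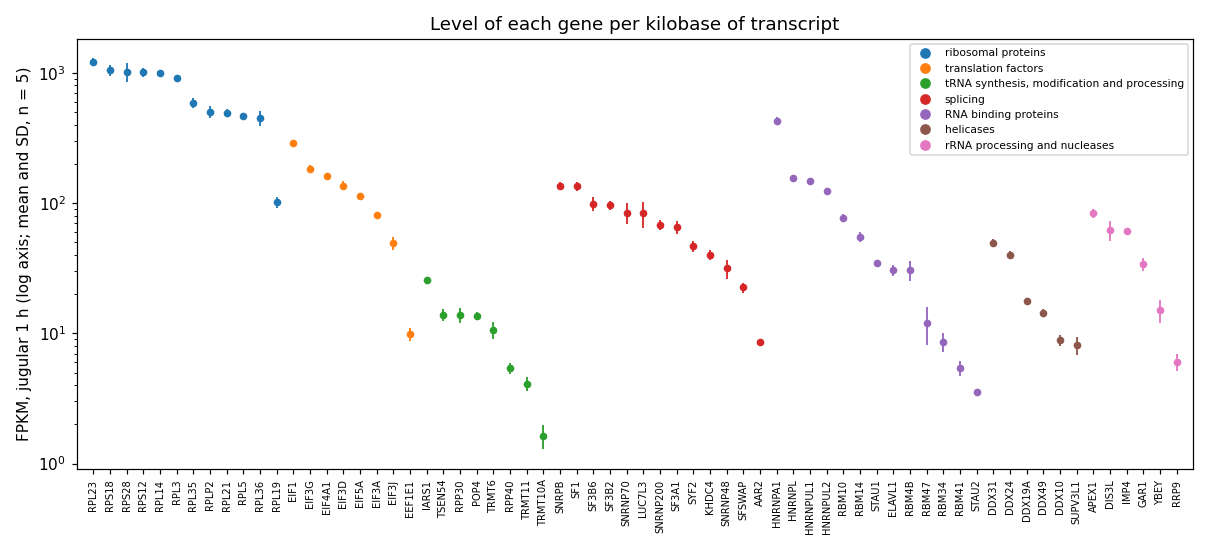
FPKM of 66 of the 67 genes in jugular blood at 1 h (mean and SD of 5 heifers, log axis), grouped by role. Ribosomal protein genes other than RPL19 lie at 450 or higher, and the tRNA group lies at 25.5 or lower.

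None of the 13 ribosomal protein genes passed the FDR at 24 h, and none had an unadjusted edgeR p under 0.05. Their log2 fold changes lay between -0.03 and 0.07, with a median of 0.04 and DESeq2 95% intervals that all lay between -0.17 and 0.24. RPL23, a large subunit protein, was at 672, 761, 656, 734 and 753 CPM at 1 h and at 698, 652, 580, 898 and 886 CPM at 24 h. Its values spread more widely at 24 h, with heifers D and E above every jugular library of 1 h and heifers B and C below all of them. Its log2 fold change was 0.04 (edgeR FDR = 0.819).

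The small mean change of this group was made of opposite changes in different heifers. At 24 h, all 13 genes were higher than at 1 h in heifer D, with a median paired log2 ratio of 0.29, and 12 of 13 were higher in heifer E, with a median of 0.12. All 13 were lower in heifer C (median -0.12), and 12 of 13 were lower in heifer B (median -0.16). In heifer A, 9 of 13 were higher (median 0.04). Over all genes tested, the median ratio was between -0.01 and 0.03 in each heifer. Each ratio rests on 1 library per time and heifer, so a change of the heifer and a change of the library cannot be told apart.

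The ribosomal protein genes moved together across the whole series. Over 30 libraries, the Pearson r of log2 CPM had a median of 0.86 among the 78 pairs of these genes (0.45 to 0.96). It had a median of 0.12 among the 1431 pairs of the other members and of 0.11 between ribosomal protein genes and other members. RPL3 was the least close to its group, with a median r of 0.69. The points share heifers and library totals, and the values are a description. The libraries of 3 to 8 h held 0.699 to 0.995% of counts in these genes (median 0.804), and the lowest value came from the library that stood apart, without which the range was 0.724 to 0.995%.

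**Figure D5:**
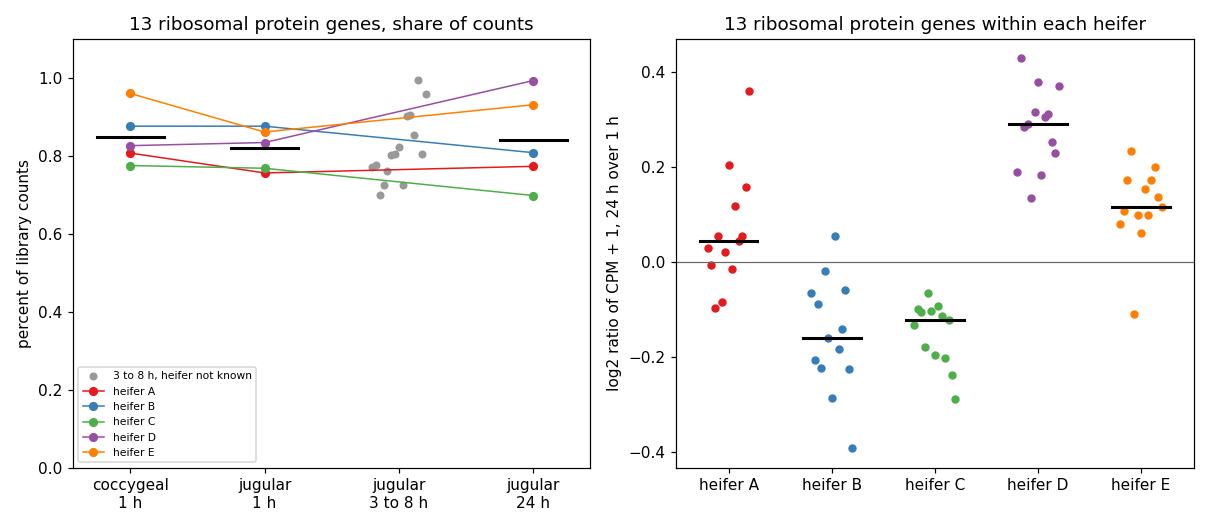
Left, percent of library counts in the 13 ribosomal protein genes by library, with lines joining the libraries of a heifer, black bars for group means and grey points for 3 to 8 h. Right, log2 ratio of CPM plus 1 at 24 h over 1 h for each of the 13 genes (points) within each heifer, with the median (bar). The points of heifer D all lie above 0 and those of heifer C all lie below it.

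The 8 translation factors had a median log2 fold change of 0.03, and none passed the FDR. EIF1, which keeps the scanning ribosome on the search for the start codon, was both the most abundant of them (287 ± 13.5 FPKM, SD, n = 5) and the gene with the smallest p. It was at 383, 379, 341, 356 and 373 CPM at 1 h, and at 415, 419, 355, 430 and 439 CPM at 24 h. It was higher at 24 h in all 5 heifers, with heifer C at 24 h inside the range of 1 h and the others above it. The log2 fold change was 0.16 (edgeR FDR = 0.0763, DESeq2 FDR = 0.0825).

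EIF3A (ENSBTAG00000002528, chromosome 26, 39243366 to 39274462, minus strand), the largest core subunit of initiation factor eIF3, is described because it was the only member whose groups did not overlap, a choice made after its values were seen. It was at 365, 427, 401, 386 and 393 CPM at 1 h and at 354, 343, 358, 360 and 335 CPM at 24 h. All libraries of 24 h lay below all of 1 h, a pattern found in 1.49% of members and 2.46% of all genes. No member lay wholly above, which 1.44% of all genes did. The log2 fold change was -0.17 (edgeR FDR = 0.0783, DESeq2 FDR = 0.0809). The libraries of 3 to 8 h held 291 to 405 CPM (median 376), and 357 to 405 CPM without the library that stood apart. The other eIF3 subunits, EIF3D, EIF3G and EIF3J, had log2 fold changes of 0.03, -0.05 and 0.04. The helicase EIF4A1 stood at -0.08, the elongation and termination factor EIF5A at 0.10 and the synthetase complex scaffold EEF1E1 at 0.05.

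The 8 genes of tRNA charging, modification and processing had a median log2 fold change of 0.05, with none past the FDR. TRMT6, a subunit of a tRNA methyltransferase, had the smallest p. It was at 19.2, 21.4, 22.8, 15.6 and 17.5 CPM at 1 h and at 16.8, 16.5, 18.5, 15.6 and 17.0 CPM at 24 h, with overlapping groups and a log2 fold change of -0.19 (edgeR FDR = 0.183). IARS1, which charges tRNA with isoleucine, was the most abundant per kilobase at 25.5 ± 1.70 FPKM (SD, n = 5). It was at 109, 107, 125, 112 and 108 CPM at 1 h and at 107, 112, 114, 97.8 and 95.1 CPM at 24 h, and its log2 fold change was -0.09 (edgeR FDR = 0.321). RPP30, a subunit of ribonuclease P, was higher at 24 h in all 5 heifers, with a log2 fold change of 0.13 (FDR = 0.334). The other subunits POP4 and RPP40 stood at -0.09 and 0.05, and the methyltransferases TRMT10A and TRMT11 and the tRNA splicing subunit TSEN54 at 0.04, 0.05 and 0.11. TRMT10A was the least abundant of the 67 genes per kilobase, at 1.63 ± 0.34 FPKM (SD, n = 5), and its 95% interval ran from -0.33 to 0.41.

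Of the 13 RNA binding proteins, 7 had log2 fold changes above 0 (53.8%, against 51.9% of all genes) and 6 below, and none passed the FDR in both tools. RBM47 (ENSBTAG00000002356, chromosome 6, 59387155 to 59663515, minus strand), an RNA binding cofactor of C-to-U editing, had the largest change of all 67 genes. It was at 88.7, 49.6, 37.0, 60.3 and 59.6 CPM at 1 h and at 42.2, 34.9, 39.2, 36.8 and 51.8 CPM at 24 h. The level was lower in 4 heifers, from a paired log2 ratio of -1.05 in heifer A to -0.20 in heifer E, and it was 0.08 in heifer C, which had the lowest level at 1 h. The tools differed on it: the log2 fold change was -0.49 in both, with an FDR of 0.0858 in edgeR and 0.00488 in DESeq2 (SE 0.13).

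Marker genes of monocytes are set beside RBM47 here, and not all of them moved with it. The summed level of CD14, CD68 and VCAN was 304 to 560 CPM in jugular blood at 1 h and 199 to 353 CPM at 24 h, with none at 0 in any library. CD14 and VCAN fell (log2 fold changes -0.62 and -0.69), and CD68 did not pass the FDR (-0.09, edgeR FDR = 0.706). By heifer, the median paired log2 ratio of these markers was -0.93, -0.88, -0.22, -0.61 and -0.35 in A to E, where that of RBM47 was -1.05, -0.50, 0.08, -0.70 and -0.20. The library that stood apart held 163 CPM of RBM47 and 750 CPM of the 3 markers, the highest values of the 3 to 8 h group, whose range without it was 27.4 to 82.5 and 220 to 598 CPM. The part of cell composition in the change of RBM47 was not tested. CD14 and VCAN came from genes that the study had listed as changed at 24 h in these same libraries, so their fall is no independent result. CD68 was not so listed.

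None of the remaining RNA binding proteins passed the FDR in either tool, which does not show that they were unchanged. HNRNPA1, a nuclear protein of mRNA packaging and splicing, was the most abundant at 429 ± 26.8 FPKM (SD, n = 5). It was at 695, 747, 786, 812 and 722 CPM at 1 h and at 734, 808, 846, 801 and 808 CPM at 24 h, with overlapping groups and a log2 fold change of 0.09 (edgeR FDR = 0.301). ELAVL1, which binds AU-rich mRNA, stood at -0.06, and the double-stranded RNA binding proteins STAU1 and STAU2 at 0.05 and -0.03. The others, HNRNPL, HNRNPUL1, HNRNPUL2, RBM10, RBM14, RBM34, RBM41 and RBM4B, lay between -0.04 and 0.13.

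The 6 helicases had a median log2 fold change of 0.02. DDX10, a nucleolar helicase, had the smallest p, with 27.4, 33.5, 27.0, 30.4 and 26.4 CPM at 1 h and 24.4, 26.1, 23.3, 27.4 and 28.9 CPM at 24 h. It was lower in 4 of 5 heifers, and the log2 fold change was -0.16 (edgeR FDR = 0.237). DDX31 was the most abundant at 49.6 ± 3.25 FPKM (SD, n = 5), with 141, 159, 154, 141 and 162 CPM at 1 h and 157, 146, 153, 162 and 153 CPM at 24 h. Its groups overlapped, and the log2 fold change was 0.03 (edgeR FDR = 0.831). DDX19A, an mRNA export helicase, DDX24, DDX49 and the mitochondrial helicase SUPV3L1 stood at 0.07, 0.02, -0.10 and 0.14. DDX49 overlaps COPE on the opposite strand, and SF3A1 overlaps CCDC157 in the same way, and since counting ignored strand, reads in shared exons cannot be told apart.

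Across all roles, 10 members were higher at 24 h in all 5 heifers (14.9%, against 12.3% of all genes), and 1 was lower in all 5 (1.49%, against 13.7%). The 10 were SNRNP70, LUC7L3, SNRNP48, KHDC4, SF1, DIS3L, IMP4, RRP9, RPP30 and EIF1. A second list of 30 genes of RNA processing and ribosome assembly that the search words had missed was counted in the same way. Of these, 2 rose with an FDR under 0.05 in both tools (4.77% of all genes did) and none fell by this criterion (4.52% of all genes). None was called, against 2.58% of all genes. The genes that passed in both tools were SRRT, a partner of the nuclear cap binding complex (174 to 211 CPM at 1 h, 218 to 236 CPM at 24 h, log2 fold change 0.25), and NOP14, a small subunit assembly factor (86.4 to 108 CPM at 1 h, 112 to 127 CPM at 24 h, log2 fold change 0.26). In edgeR alone, SMG8 (-0.24) and DCP2 (-0.25) also passed the FDR, both lower, and in DESeq2 alone RNGTT (-0.29, lower) and LAS1L (0.21, greater) did. An unadjusted edgeR p under 0.05 was found in 11 of the 30, against 28.1% of all genes, and the median log2 fold change of the 30 was 0.03.

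Lymphocyte markers moved at 24 h beside these results. All 10 T lymphocyte markers fell with an FDR under 0.05 in both tools, as 4.52% of all genes did. Their summed level was 1085 to 1652 CPM at 1 h and 638 to 1058 CPM at 24 h, with none at 0. Of these, 9 came from genes that the study had listed as changed at 24 h in these same libraries. Their fall was thus fixed in advance and is no independent result. Only TCF7 was not so listed (log2 fold change -0.38, edgeR FDR = 0.00683). The B lymphocyte marker CD79A was at 439 to 559 CPM at 1 h and 477 to 696 CPM at 24 h (log2 fold change 0.18, edgeR FDR = 0.185). By heifer, the median paired log2 ratio of the T markers was -1.14, -0.55, -0.63, -0.33 and -0.55 in A to E. That of CD79A was 0.49, -0.13, 0.12, 0.36 and 0.07, beside 0.04, -0.16, -0.12, 0.29 and 0.12 for the ribosomal protein genes. Of the cytotoxic markers PRF1, GZMB and CRTAM, PRF1 and CRTAM fell, and their summed level was 121 to 170 CPM at 1 h and 69.9 to 153 CPM at 24 h. The eosinophil markers IL5RA, which fell, and CCR3 summed to 33.7 to 67.3 CPM at 1 h and 32.0 to 68.3 CPM at 24 h, and the platelet marker SELP rose (6.79 to 29.8 CPM at 1 h, 11.8 to 47.2 CPM at 24 h). GZMB, CRTAM and SELP also came from the genes that the study had listed as changed at 24 h in these libraries. The part of these shifts in the levels of the 67 genes was not tested.

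Which members passed the FDR depended on the heifers kept, while the fold changes stayed of like size. With 1 heifer left out at a time, the edgeR log2 fold change was 0.38 to 0.53 for SNRNP70, 0.29 to 0.45 for LUC7L3, 0.26 to 0.30 for SNRNP48 and 0.23 to 0.32 for DIS3L. Without heifer A or B, SNRNP70 alone passed in both tools. Without D or E, SNRNP70 and LUC7L3 passed, and without C, SNRNP70, LUC7L3, DIS3L and RBM47 passed. In that last setting SNRNP70 (log2 fold change 0.53) and RBM47 (-0.63) also met the full call. In a single fit of the 15 libraries of known vein, time and heifer, SNRNP70 had a log2 fold change of 0.43 and an edgeR FDR of 0.0717, while the other 3 still passed.

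Between veins at 1 h, none of the 67 genes was called or had an FDR under 0.05 in edgeR or in DESeq2, and 0% of all genes did. The log2 fold change was above 0 for 45 members (67.2%, against 47.8% of all genes). None had an unadjusted p under 0.05 in either tool, which was found in 1.98% of all genes with edgeR and 0.721% with DESeq2. The 95% intervals of all 67 log2 fold changes lay between -0.5 and 0.5, against 73.7% of all genes, and the median absolute log2 fold change was 0.04 for members and 0.06 for all genes. No member had an absolute log2 fold change above 0.25, which 6.29% of all genes had (0.942% above 0.5). Coccygeal blood was higher in all 5 heifers for RRP9 and SFSWAP (2.99% of members, 1.5% of all genes) and lower in all 5 for none (2.43% of all genes). No member's groups failed to overlap, in either direction (0.0357% of all genes higher, 0.0143% lower). RPL19, a large subunit protein, had the smallest p. It was at 104, 98.6, 103, 102 and 115 CPM in coccygeal blood and at 95, 107, 81.3, 100 and 99.2 CPM in jugular blood of heifers A to E. The groups overlapped, and the log2 fold change was 0.12 (edgeR p = 0.114, FDR = 1.00), with a DESeq2 95% interval of -0.05 to 0.30. At 24 h against 1 h it was 0.05 (edgeR FDR = 0.757), with 94.6, 92.6, 75.9, 135 and 107 CPM at 24 h.

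All 13 ribosomal protein genes had vein differences above 0 (0.03 to 0.12, median 0.05), against 47.8% of all genes. Within heifers, all 13 were higher in coccygeal blood in heifer E (median paired log2 ratio 0.16) and 11 of 13 in heifer A (0.12), while 5 of 13 were higher in B and in D and 7 of 13 in C. The T lymphocyte markers summed to 1090 to 1975 CPM in coccygeal blood and 1085 to 1652 CPM in jugular blood. All 10 had vein differences above 0 (0.04 to 0.29, median 0.17), and none passed the FDR. In heifers A to E, 10, 10, 1, 6 and 8 of these 10 markers were higher in coccygeal blood. SNRNP70, LUC7L3, SNRNP48 and DIS3L had vein differences of 0.09, 0.04, -0.03 and -0.04. SNRNP70 was at 112, 88.5, 86.9, 69.9 and 81.4 CPM in coccygeal blood. Its paired log2 ratio was 0.86 in heifer A and -0.01, -0.06, -0.06 and -0.26 in B to E, so it was higher in coccygeal blood in heifer A alone. The coccygeal levels of LUC7L3 were 209, 220, 204, 181 and 142 CPM, those of SNRNP48 were 33.6, 34.6, 37.2, 31.4 and 29.2 CPM and those of DIS3L were 204, 198, 244, 200 and 211 CPM. Both comparisons share the jugular libraries of 1 h.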

How the data were processed

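Total RNA of PWBCs was sequenced as mRNA libraries (TruSeq stranded kit, paired reads). The authors trimmed reads with cutadapt 2.8, aligned them to ARS-UCD1.2 with HISAT2 2.2.0, filtered them with SAMtools 1.10, discarded duplicates and assigned fragments to annotated genes with featureCounts (Subread 2.0.1), ignoring strand. The deposited values are raw counts per gene; removing duplicates can lower the counts of short, abundant transcripts. No column was left unused (0).

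Columns were tied to vein, time and heifer through the study's own code, and the 15 columns of 3 to 8 h by elimination. Genes with CPM above 1 in 5 or more of 30 libraries (14018) were tested on the 10 libraries of each comparison with heifer as a block: edgeR 4.0.16 quasi-likelihood F test (library size scaling, robust, legacy fit) and DESeq2 1.42.0 Wald test, in R 4.3.3, with Benjamini-Hochberg FDR over all genes tested. Calls followed the study's rule. The study fitted all jugular libraries together, which was not done here. FPKM used the annotated transcript length. Paired ratios used log2(CPM + 1). Intervals of 95% are normal intervals from the SE. The scripts were tested on simulated data.

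Named genes were, in each role group, the gene with the smallest edgeR p at 24 h and the one with the highest FPKM, and the gene with the smallest p between veins. One of these genes is not reported here by name. LUC7L3, SNRNP48 and EIF3A were added after their values were seen. The members, the lists and the rules were chosen with earlier results of these data known. The lists were 30 other RNA genes and markers of T, B and cytotoxic lymphocytes, monocytes, eosinophils and platelets.

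Deviations from group means of same-heifer libraries correlated at 0.41 to 0.86 in all 15 pairs, each best with its own heifer. No 2 libraries of a group agreed within sampling noise (chi-square per degree of freedom of 3.10 or more in 135 pairs). Alternatives were TMM scaling, no block, each heifer left out, other filters, other libraries fitted, either tool alone, non-robust and newer fits, and other fold thresholds. No sequence is shown, as no sequence of the build was used here.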

Additional observations from a re-analysis of the deposited data

Results flagged for a closer look

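In groups of 5, a value was picked out where its gap to the nearest other value took more than 0.71 of the range of the group (Dixon's ratio). Among 75 groups tested, 5 met this, and chance gives about 1 in 20. EIF1 in heifer C at 24 h was at 355 CPM, under 415 to 439 CPM in the others. TRMT6 in coccygeal blood of heifer D was at 16.8 CPM, under 19.2 to 19.8 CPM. IARS1 in jugular blood of heifer C at 1 h was at 125 CPM, above 107 to 112 CPM. DIS3L in coccygeal blood of heifer C was at 244 CPM, above 198 to 211 CPM. The summed eosinophil markers in coccygeal blood of heifer B were at 80.9 CPM, above 36.1 to 47.9 CPM. Of the 5 values, 3 belonged to heifer C.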

How the results depend on the processing

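The log2 fold changes of SNRNP70, LUC7L3, SNRNP48 and DIS3L kept their direction under every alternative run, and lost the FDR in 16 cases. The 4 members with an FDR under 0.05 in both tools at 24 h became 0 with no replicate block (all genes: 44 in place of 1301) and 1 to 4 when a heifer was left out (1 without A or B, 2 without D or E). The count of members called, 0, became 2 without heifer C and 4 with a log2 fold threshold of 0.25, and otherwise stayed at 0; between veins it was 0 under every alternative. The 2 other RNA genes, whose alternatives were chosen after seeing the data, became 0 with no replicate block, 7 in the fit of 15 libraries, 5 with no filter, 4 with edgeR alone, 4 with DESeq2 alone and 0 to 3 with a heifer left out. With a heifer left out, the group medians ranged from -0.03 to 0.09 for ribosomal proteins (-0.03 without D) and -0.01 to 0.07 for tRNA genes (-0.01 without B). They ranged from -0.02 to 0.05 for helicases (-0.02 without D), so the signs of these 3 groups turned. The median of the RNA binding proteins, 0.05 with all heifers, ranged from -0.0 to 0.06 and fell just below 0 without A. The ranges were 0.00 to 0.05 for translation factors, 0.05 to 0.13 for splicing and 0.14 to 0.21 for rRNA processing and nucleases. Signs of single genes turned for RPL23 (-0.03 without D, -0.01 without E), DDX31 (-0.01 without A, -0.02 without D) and RPL19 (-0.05 without D, -0.05 to 0.11 over all 5). The cause was not tested. With the smallest DESeq2 standard errors near 0.06, changes of 0.1 or less on the log2 scale could not be resolved with 5 heifers.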
